A study of Mus musculus with 22 samples.

Results

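Glycinergic and GABAergic synapse genes of the mouse spinal cord were followed across 4 groups of mice with knee joint pain. The 9 genes were Glra1, Glra3 and Glrb (glycine receptor subunits), Gphn (gephyrin, the scaffold of inhibitory synapses), Gad1 and Gad2 (the enzymes that make GABA), Slc32a1 (the vesicular transporter of GABA and glycine), Slc6a5 (the glycine transporter of glycinergic terminals) and Slc6a9 (the glycine transporter found mainly on astrocytes). They were matched by symbol in a table of 17306 genes. The rule names genes and no level, and the set was proposed with earlier results of these data known. All 9 were among the 16765 genes that passed the filter on low values (log2 CPM of at least -1 in 5 libraries). CPM expresses the reads of a gene relative to all reads on genes in its library, scaled by the authors between libraries.

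RNA was sequenced from lumbar (L4 to L6) spinal cord of 22 wildtype C57BL6J mice aged 12 to 14 weeks, collected on day 30 after an injection of monoiodoacetate (MIA; 1 mg) into the knee, which damages cartilage and causes persistent pain. The study describes the tissue as quadrants of the injured side and names the dorsal horn. All mice carried the injury, so no comparison with uninjured cord was possible. SAFit2, a selective inhibitor of FKBP51, a co-chaperone that lowers the sensitivity of the glucocorticoid receptor, was given subcutaneously at 100 mg/kg in a slow-release vesicular phospholipid gel, and Vehicle mice received the gel. The 5 Early SAFit2 and 6 Early Vehicle mice were injected on days -3 and 4 around MIA, and the 5 Late SAFit2 and 6 Late Vehicle mice on days 20 and 27. For early mice the labels name days 3 and 4 instead, and SAFit1 stands in the sample titles of the Early SAFit2 group but SAFit2 in its treatment label, which was used here. The batch label reads Early or Late, as the timing does, so a difference in level between early and late mice cannot be told apart from a batch. The comparisons asked whether spinal gene expression at day 30 differed with early or late blockade of FKBP51. Per the study, late mice were still in the active phase of SAFit2 at collection, whereas early mice were past it.

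In the dorsal horn, inhibitory interneurons release GABA, glycine or both, and this release limits how strongly input from the skin and joints is passed on to projection neurons. Glycine and GABA are loaded into the same vesicles by the same transporter, and act on chloride channels held under the terminal by gephyrin, which binds the beta subunit of the glycine receptor. Transmission ends when transporters return glycine to the terminal or take it into astrocytes. Loss of this inhibition is a well-known feature of persistent pain states.

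Libraries held between 11352989 and 24433349 reads on genes. The share of reads from mitochondrial genes lay between 12.7% and 14.9% in Late SAFit2, between 6.82% and 13.9% in Late Vehicle, between 6.99% and 11.3% in Early SAFit2 and between 7.18% and 18.3% in Early Vehicle. Late Vehicle replicate 6 held the 13.9%, and the other 5 Late Vehicle libraries lay below every Late SAFit2 library. The small neuronal RNA Bc1 took 16.5% of reads in Late SAFit2 replicate 5, 11.9% in Early Vehicle replicate 4 and 8.81% in Late SAFit2 replicate 4. Over genes tested, the late log2 fold change followed the GC content of the longest transcript, with Pearson's r of -0.61 over 16213 genes, a description since genes are not independent. Markers of neurons, astrocytes and oligodendrocytes were read in every library. For the sensory ganglion and nerve root genes (4 of 6 analysed here), 1 Late SAFit2 library had a log2 summed CPM of -0.44, where Late Vehicle libraries lay between 9.07 and 10.3. In bulk tissue, fewer cells of a type and less RNA per cell cannot be told apart. Nothing in the labels says that mice of a group were more than separate samples of that group, so p-values measure the spread between these 22 samples.

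Levels are compared per kilobase of longest transcript. Glrb was highest at 136.7 ± 33.4 CPM per kb (mean ± SD, n = 22 mice), followed by Gad1 at 73.7 ± 9.47, Slc6a9 at 67.8 ± 20.2 and Slc32a1 at 59.2 ± 17.3 CPM per kb. Gad2 at 26.3 ± 5.70, Gphn at 22.9 ± 2.53 and Glra1 at 15.2 ± 3.03 CPM per kb stood in the middle. Slc6a5 at 4.999 ± 2.89 and Glra3 at 0.919 ± 0.414 CPM per kb were lowest. Glrb thus stood well above its partner subunits, and Glra3 rested on few reads, 14 to 268 a library. Within a mouse, Glrb was above Gad1 in 22 of 22 mice, Slc32a1 above Gad2 in 22, Gphn above Glra1 in 22 and Glra1 above Slc6a5 in 22. Gad1 was above Slc6a9 in only 13 of 22 mice, so these neighbours were not told apart, and Gad2 was above Gphn in 18. Taking the length of all exons in place of the longest transcript moved Slc32a1 to rank 2 and Gad1 to rank 4 and left the other members at their ranks.

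**Figure D1:**
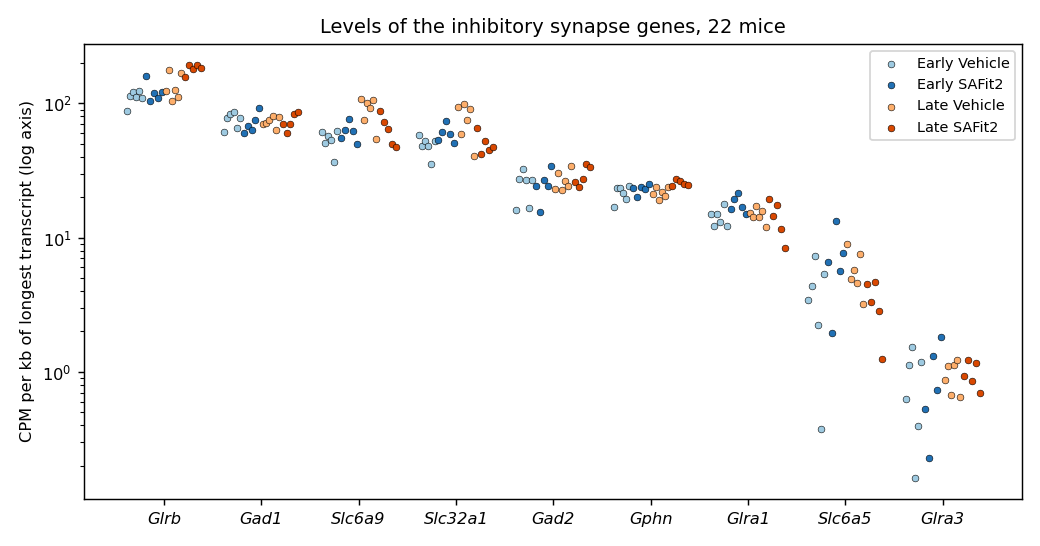
Level of each gene in CPM per kb of longest transcript (log axis) in each of 22 mice, coloured by group, genes ordered by mean. Glrb sits highest at a mean of 136.7 and Glra3 lowest at 0.919, and Slc6a5 and Glra3 spread most between mice.

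The genes lie on separate stretches of the genome (GRCm38, GENCODE M21). Glra1 lies at chr11:55514238-55608198 on the minus strand, Glra3 at chr8:55940460-56130070 on the plus strand, Glrb at chr3:80843599-80913660 on the minus strand and Gphn at chr12:78226379-78684772 on the plus strand. On the plus strand of chromosome 2 lie Gad1 (chr2:70553072-70602014), Gad2 (chr2:22622205-22693874) and Slc32a1 (chr2:158610767-158615748). Slc6a5 lies at chr7:49910146-49963856 and Slc6a9 at chr4:117834506-117875198, both on the plus strand. Slc32a1 is the shortest gene, with 2 exons in 4982 bases, while Gphn spans 458394 bases with 24 exons. Annotated genes on the opposite strand overlap Gad1 (Gad1os), Slc32a1 (Gm14205), Glra1 (Gm12236), Gphn (Gm48226) and Slc6a9 (Gm17114, Ccdc24 and B4galt2). The kit kept strand, and whether counting used it is not given in the sources used here, so reads of these partners may be mixed.

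Because SAFit2 acts on a partner of the glucocorticoid receptor, the promoter windows of the 4 genes that passed nominal p in the late comparison are shown. Each window runs from 250 bases before to 50 bases after a RefSeq start (GRCm38.p6) and is written 5′ to 3′ along the gene, and capitals mark a match to GGGCGG (the GC box) on either strand. Slc32a1 and Slc6a9, which were lower in Late SAFit2 on the deposited scale, come first, then Glrb and Gphn, which were higher. Slc6a9 has 3 starts in the table, and the first is shown.
Slc32a1, chr2:158610508-158610807, plus strand: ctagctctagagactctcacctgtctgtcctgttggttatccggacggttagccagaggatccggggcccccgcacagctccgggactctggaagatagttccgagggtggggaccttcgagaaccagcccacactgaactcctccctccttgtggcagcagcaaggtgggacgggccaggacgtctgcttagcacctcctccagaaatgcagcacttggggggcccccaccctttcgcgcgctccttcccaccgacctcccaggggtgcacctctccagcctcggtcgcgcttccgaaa
Slc6a9, chr4:117835008-117835307, plus strand: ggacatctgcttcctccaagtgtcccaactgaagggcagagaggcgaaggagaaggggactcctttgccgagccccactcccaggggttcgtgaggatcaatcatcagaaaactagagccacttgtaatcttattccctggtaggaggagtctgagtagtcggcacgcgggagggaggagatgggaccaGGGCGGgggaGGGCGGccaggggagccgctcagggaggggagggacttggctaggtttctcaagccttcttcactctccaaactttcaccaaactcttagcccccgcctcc
Glrb, chr3:80913611-80913910, minus strand: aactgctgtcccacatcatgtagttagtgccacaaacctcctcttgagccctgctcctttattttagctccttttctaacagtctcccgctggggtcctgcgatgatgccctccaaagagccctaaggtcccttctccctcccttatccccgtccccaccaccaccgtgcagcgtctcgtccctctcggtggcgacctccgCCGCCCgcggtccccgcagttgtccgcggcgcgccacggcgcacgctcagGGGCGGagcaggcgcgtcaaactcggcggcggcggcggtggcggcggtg
Gphn, chr12:78226405-78226704, plus strand: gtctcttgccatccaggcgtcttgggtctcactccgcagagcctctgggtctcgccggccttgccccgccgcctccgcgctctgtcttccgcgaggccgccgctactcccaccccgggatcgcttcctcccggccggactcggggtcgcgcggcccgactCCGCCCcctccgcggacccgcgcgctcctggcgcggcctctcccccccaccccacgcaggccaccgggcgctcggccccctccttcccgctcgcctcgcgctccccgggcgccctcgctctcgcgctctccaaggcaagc
RefSeq windows were matched for 8 of the 9 genes (11 windows). The hexamer AGAACA, a core motif of glucocorticoid receptor sites, searched on both strands, had 0 matches in the 11 windows, and 19.0% of all 32851 promoter windows of that length hold it. So few windows cannot tell 0 matches from that share, and sequence outside the windows was not searched. Paired AGAACA and TGTTCT with 3 bases between them occurred in 3 of the 32851 windows and in 0 of the 11. The GC box was found at 2 places in the windows of Glrb and the first Slc6a9 start, at 1 place in those of Gphn, Gad1 and Glra3, and at 0 places in that of Slc32a1 (35.7% of all windows). CCAAT occurred 2 times each in the windows of Gad2 and Glra3 (37.4% of all windows), and TATAAA 1 time in that of Gad1 (13.6%). The window of Gphn was 77% GC with 42 CpG, and that of Slc32a1 63.3% GC with 17 CpG, against medians of 52.7% and 7 CpG over all windows.

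In the late comparison, Glrb rose and Slc32a1 fell on the deposited scale. A gene was called where limma gave an adjusted p (Benjamini-Hochberg) below 0.05 with at least a 1.2-fold difference, which held for these 2 of the 9 genes and for 12.1% of all genes tested. Slc6a9 was lower and Gphn higher at nominal p, which makes 4 of 9 at nominal p beside 34.5% of all genes. The enzymes Gad1 and Gad2 and the subunits Glra1 and Glra3 differed by less than their standard errors. Both calls rested on several single libraries: Glrb was not called when Late SAFit2 replicate 2, 3, 4 or 5 or Late Vehicle replicate 1, 3, 4 or 5 was left out (limma adjusted p of 0.0512 to 0.115). Slc32a1 was not called without any 1 of those libraries (limma adjusted p of 0.0556 to 0.126) or without Early SAFit2 replicate 4 or 5 or Early Vehicle replicate 2, 3 or 6, which share the estimate of spread (0.0515 to 0.0554). The count of all genes called moved as well, from 1 to 4971 when single libraries were left out.

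Among the receptor and scaffold genes, Glrb, whose product anchors glycine receptors to gephyrin, was read at 8.90, 9.20, 9.10, 9.19 and 9.12 log2 CPM in the 5 Late SAFit2 mice. In Late Vehicle the lowest, median and highest values were 8.30, 8.56 and 9.08 log2 CPM. Every Late SAFit2 mouse was above the Late Vehicle mean and 4 of 5 were above all Late Vehicle mice, while Late Vehicle replicates 2 and 6 reached the SAFit2 range. The log2 fold change was 0.45 ± 0.13 (SE), 1.37-fold, with a limma adjusted p of 0.0385 and a two-sided exact permutation p of 0.0260 over 462 splits. Gphn was read at 6.44, 6.61, 6.56, 6.48 and 6.46 log2 CPM in Late SAFit2, and between 6.10 and 6.42 with a median of 6.28 in Late Vehicle. It was the only member whose late groups did not overlap, as 1.71% of all genes did, although the difference was small at a log2 fold change of 0.23 ± 0.10 and 1.17-fold. The exact permutation p was 0.00866, and limma gave p = 0.0272 before and 0.101 after adjustment, so Gphn was not called. Glra1, the ligand-binding alpha subunit of adult spinal receptors, was read at 5.53, 5.12, 5.39, 4.79 and 4.34 log2 CPM in Late SAFit2 and between 4.85 and 5.36 in Late Vehicle. Its Late SAFit2 mice lay on both sides of the Vehicle range, and the log2 fold change of -0.10 had a 95% interval of -0.44 to 0.24. Glra3, an alpha subunit of superficial dorsal horn, differed by 0.06 with an interval of -0.88 to 0.99, a wide interval that both directions share.

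The GABA-making enzymes were not called and differed little in level. Gad1, which makes most GABA at rest, had 8.05 ± 0.21 log2 CPM in Late SAFit2 (SD, n = 5) and 8.04 ± 0.13 in Late Vehicle (SD, n = 6), a log2 difference of 0.01 with a 95% interval of -0.23 to 0.26. Gad2, which supplies GABA at terminals, had 7.38 ± 0.25 and 7.25 ± 0.24 log2 CPM, a log2 difference of 0.13 with an interval of -0.25 to 0.51. The groups overlapped for both enzymes.

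Among the transporters, Slc32a1 was read at 7.52, 6.87, 7.20, 6.98 and 7.04 log2 CPM in Late SAFit2. Late Vehicle had a lowest value of 6.84, a median of 7.85 and a highest value of 8.11 log2 CPM. All 5 Late SAFit2 mice lay below the Vehicle mean, but the groups overlapped. Late Vehicle replicate 6 was the lowest mouse of all 11, and replicate 2, at 7.37, lay within the SAFit2 range. The log2 fold change was -0.55 ± 0.18 (SE), a 1.47-fold lower level, with a limma adjusted p of 0.0456 and an exact permutation p of 0.0584. Without Late Vehicle replicate 6 the log2 fold change was -0.72 with a limma adjusted p of 0.00397, but calls over all 16765 genes rose too, from 2021 to 4971. Slc6a9 was read at 8.26, 7.97, 7.82, 7.45 and 7.36 log2 CPM in Late SAFit2, and between 7.57 and 8.56 with a median of 8.39 in Late Vehicle. Here 4 of 5 mice lay below the Vehicle mean and 2 below every Vehicle mouse, with a log2 fold change of -0.48 ± 0.18, a limma adjusted p of 0.0662 and an exact permutation p of 0.0693. Without Late Vehicle replicate 6 Slc6a9 was called, at -0.61 with a limma adjusted p of 0.0084. It was also called without Late Vehicle replicate 2, Late SAFit2 replicate 1 or Early Vehicle replicate 5 (limma adjusted p of 0.0252 to 0.0470). Leaving these out in that order gave 3790, 3537 and 2914 calls over all genes. Without the 3 libraries of highest Bc1 share the log2 fold change of Slc6a9 was -0.23.

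Slc6a5, the marker of glycinergic neurons, varied most between mice of a group, with a within-group SD of 1.04 on the log2 scale. It was read at 4.99, 4.56, 5.06, 4.35 and 3.17 log2 CPM in Late SAFit2, and between 4.50 and 5.99 with a median of 5.24 in Late Vehicle. All 5 SAFit2 mice were below the Vehicle mean, 2 of them below every Vehicle mouse. The log2 fold change of -0.87 had a standard error of 0.53, with a limma adjusted p of 0.245 and an exact permutation p of 0.0411. With the oligodendrocyte marker mean as a covariate the log2 fold change was -0.32, and without the 3 libraries of highest Bc1 share it was -0.42.

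**Figure D2:**
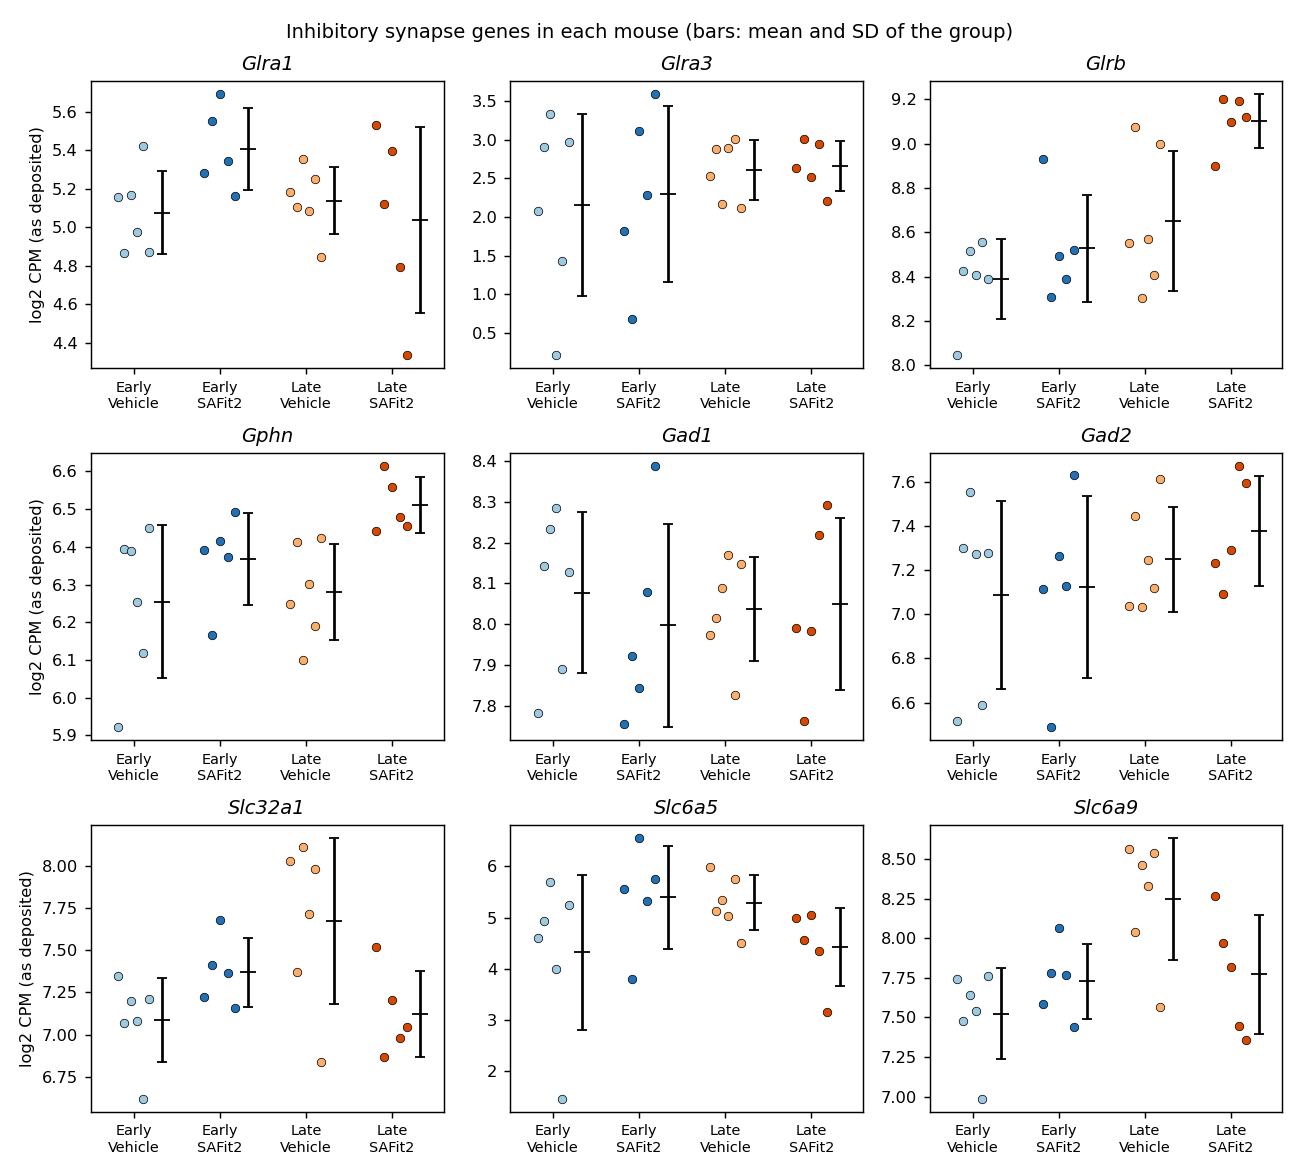
Deposited log2 CPM of each gene in each mouse (points) with the mean and SD of its group (bars), one panel per gene with its own axis. Gphn in Late SAFit2 lies wholly above Late Vehicle, and for Slc32a1 the lowest Late Vehicle mouse, at 6.84, lies below every Late SAFit2 mouse.

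Members were next set beside genes of like GC content. Slc32a1 has a transcript of 61.9% GC, Slc6a9 of 57.0% and Glra1 of 52.7%, against 48.2% for Slc6a5, 48.1% for Gphn, 47.3% for Gad1, 44.1% for Gad2, 40.8% for Glrb and 35.2% for Glra3. The 671 genes within 2 percentage points of Slc32a1 had a median late log2 fold change of -0.62, beside -0.55 for Slc32a1. The 2568 genes around Slc6a9 had a median of -0.42, beside -0.48 for Slc6a9, and the 1934 genes around Glrb a median of 0.36, beside 0.45 for Glrb. For Gphn the like median was 0.05 beside 0.23, and for Slc6a5 0.05 beside -0.87. Glra3 stood below its like genes, at 0.06 beside a median of 0.50. When the trend of each library on GC content and length was taken away, no gene of 16213 was called in the late comparison, and the late log2 fold change of Slc32a1 became 0.13, that of Glrb 0.13 and that of Slc6a9 -0.02. Gphn held 0.23 with an adjusted limma p of 0.185, and Slc6a5 held -0.84 with an adjusted limma p of 0.391. The correction cannot separate base composition from a treatment effect that tracks it.

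**Figure D3:**
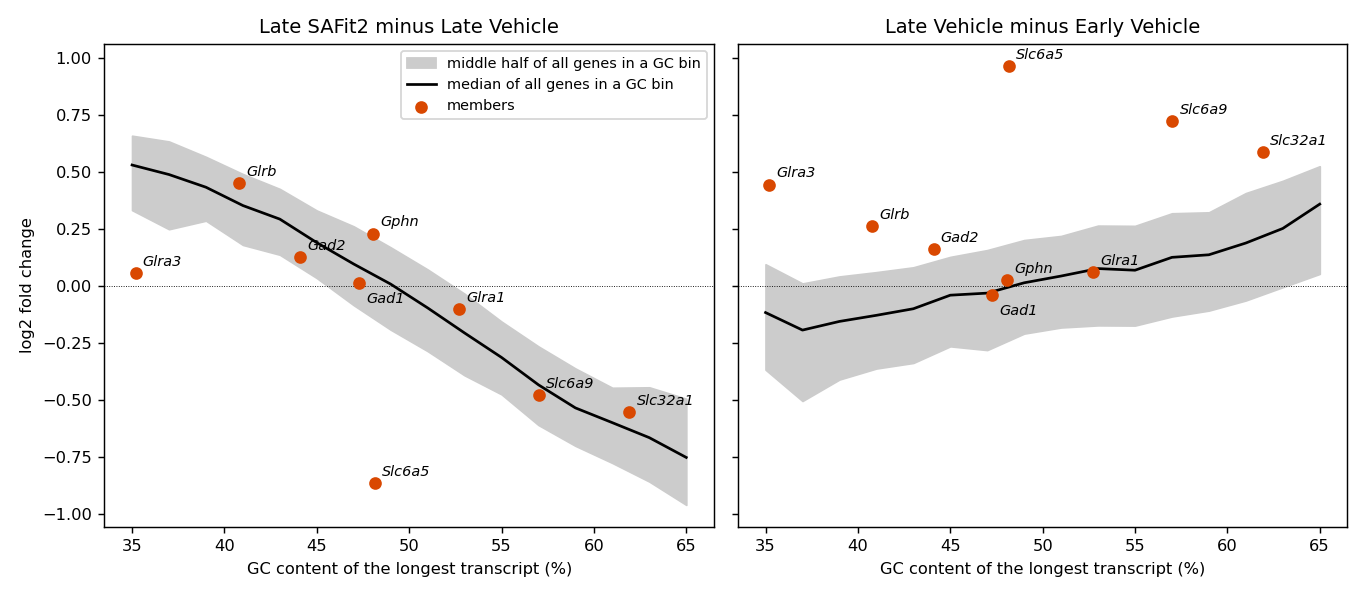
Log2 fold change of the 9 genes (orange points) against GC content of the longest transcript (%), over the median (line) and middle part (25th to 75th percentile, grey) of all genes in bins of 2 percentage points. In the late comparison Slc32a1, Slc6a9 and Glrb lie close to the line while Slc6a5 at -0.87 and Glra3 at 0.06 lie below it. In the Vehicle comparison Slc6a5, Slc6a9, Slc32a1, Glra3, Glrb and Gad2 lie above it.

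Mitochondrial and Bc1 shares of the libraries moved with several members. After group means were removed, Slc32a1 had a Pearson r of -0.73 with the mitochondrial share over 22 mice (permutation p = 0.00061 and adjusted p = 0.0108 over 18 relations, Spearman's rho -0.66 with p = 0.00132 and adjusted p = 0.00792). Within early mice r was -0.73 and within late mice -0.92, and without the 2 libraries farthest from the median it was -0.53. Slc6a9 had r of -0.67 and rho of -0.54 with that share (permutation p = 0.00237 and 0.00887, adjusted p = 0.0142 and 0.0319), and r of -0.38 without 2 libraries. Slc6a5 had r of -0.78 and rho of -0.56 (permutation p = 0.0012 and 0.012, adjusted p = 0.0108 and 0.036), and r of -0.55 without 2 libraries. For Glrb r was 0.48 with an adjusted p of 0.0842 by permutation, and for Gphn r was -0.02 with the mitochondrial share and 0.02 with Bc1. The value of Gphn joins opposite signs, as r with the mitochondrial share was -0.29 in early and 0.71 in late mice. For Glrb it was 0.30 in early and 0.80 in late mice. The share of Bc1, which lay between 3.31% and 16.5% in Late SAFit2 and between 1.32% and 7.55% in Late Vehicle, also ran against Slc6a9 (r = -0.59, rho = -0.70, adjusted permutation p = 0.0309 and 0.00369) and Glra1 (r = -0.65, rho = -0.55, adjusted permutation p = 0.0309 and 0.0514). So it did against Glra3 (r = -0.54, rho = -0.45, adjusted permutation p = 0.0153 and 0.0514), Slc6a5 (r = -0.49, rho = -0.70, adjusted permutation p = 0.0954 and 0.00369) and Slc32a1 (r = -0.44, rho = -0.58, adjusted permutation p = 0.0842 and 0.0134). For Slc6a9 r with Bc1 was -0.25 in early and -0.78 in late mice, and for Glra1 -0.10 and -0.93. The part of either share in the late differences was not tested.

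Marker means of neurons, oligodendrocytes and astrocytes differed by 0.05 to 0.12 log2 CPM with late treatment. Those of motor neurons (0.02), microglia (-0.04), endothelial cells (0.002) and oligodendrocyte precursors (-0.12) differed by no more in size. Those of ependymal, nerve root and skeletal muscle genes differed by more. For 10 neuron markers the mean was 0.05 log2 CPM above that of Late Vehicle (exact permutation p = 0.396, 2 of 10 called higher), and the log2 of their summed CPM ranged from 13.0 to 13.4 against 12.9 to 13.1. The 10 oligodendrocyte markers were 0.12 higher (exact permutation p = 0.0498, 2 of 10 called higher), with summed levels of 14.3 to 14.6 against 14.2 to 14.4. The 10 astrocyte markers were 0.06 higher (exact permutation p = 0.188, 1 called higher and 1 lower), with summed levels of 12.6 to 12.8 against 12.5 to 12.7. No marker of the neuron, oligodendrocyte and astrocyte lists was at 0 in any library. Of the skeletal muscle genes (4 of 5 analysed here, Ckm, Mylpf and Tnnt3 at 0 in at least 1 library), 1 was called higher, with a mean 2.09 log2 CPM higher (exact permutation p = 0.0758) and log2 summed CPM of up to 6.96 in Late SAFit2 and up to 1.96 in Late Vehicle. Of the ependymal genes (5 of 6 analysed here, Ccdc153, Tmem212 and Dnah12 at 0 in at least 1 library), 2 were called lower, with a mean 0.85 lower (exact permutation p = 0.203) and log2 summed CPM of 4.12 to 5.40 against 4.92 to 5.94. The nerve root mean was 1.30 lower (exact permutation p = 0.468) with 0 called. The part of any of these lists in the late differences was not tested beyond the covariates given. With the neuron mean as a covariate Glrb had an adjusted p of 0.055 and Slc32a1 of 0.0606 in limma, at log2 fold changes of 0.41 and -0.54.

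In the early comparison none of the 9 genes was called, as 0% of all genes were, and 0 reached nominal p in limma, beside 2.48% of all genes. Voom on the recovered reads also called 0 members, with 1, Glra1, at nominal p. After the GC and length correction 0 were called but 4 of 9 were higher at nominal p, Glrb, Glra1, Slc32a1 and Slc6a5, beside 4.51% of all genes, at log2 differences of 0.20, 0.34, 0.19 and 1.02. In these mice the ependymal marker mean was lower by 2.06 log2 CPM (exact permutation p = 0.00433), the microglia mean by 0.18 (exact permutation p = 0.0130) and the astrocyte mean by 0.12 (exact permutation p = 0.0476), and the part of these lists was not tested. The ependymal mean holds values near the floor, with Ccdc153, Tmem212 and Dnah12 at 0 in at least 1 library. Log2 summed CPM of that list was 4.26 to 4.83 in Early SAFit2 and 4.65 to 5.48 in Early Vehicle. Slc6a5 was 5.55, 3.80, 6.56, 5.32 and 5.76 log2 CPM in Early SAFit2, and in Early Vehicle it ran from 1.47 to 5.69 with a median of 4.77. The lowest Vehicle value came from 44 reads in replicate 5, whose mitochondrial share of 18.3% was the highest of all libraries. The log2 difference of 1.07 ± 0.53 had limma p = 0.0526 before and 1.00 after adjustment, and an exact permutation p of 0.214. Without that library it was 0.50. Glra1 was 5.28, 5.55, 5.69, 5.34 and 5.16 log2 CPM in Early SAFit2 and between 4.86 and 5.42 in Early Vehicle, so that all 5 mice lay above the Vehicle mean and 2 above the Vehicle range. Its log2 difference of 0.33 ± 0.16 had a nominal limma p of 0.0558 and an exact permutation p of 0.0411. Slc32a1 was 0.28 ± 0.18 higher (exact permutation p = 0.0584), with all 5 SAFit2 mice above the Vehicle mean. The other members differed by -0.08 (Gad1) to 0.20 (Slc6a9).

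Averaged over both timings, Glrb and Gphn passed nominal p, which makes 2 of 9 beside 13.2% of all genes, and no gene of the table passed an adjusted p (0% of genes). The average log2 difference was 0.29 ± 0.09 for Glrb (limma p = 0.00458, adjusted p = 0.325, permutation p within timing = 0.0108) and 0.17 ± 0.07 for Gphn (limma p = 0.0206, adjusted p = 0.345, permutation p within timing = 0.0109). Both genes, which encode partners at the glycine receptor anchor, were above the Vehicle mean in 5 of 5 late mice, and in early mice Glrb was so in 3 of 5 and Gphn in 4 of 5.

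The early effect minus the late effect compares the response to SAFit2 between the timings. None of the 9 genes was called, as 0% of all genes were, while 3 of 9 reached nominal p beside 24.9% of all genes. These were Slc32a1 at 0.84 ± 0.25 (limma p = 0.00267, adjusted p = 0.120, permutation p = 0.00896 over 213444 splits), Slc6a9 at 0.68 ± 0.25 (limma p = 0.0117, adjusted p = 0.125, permutation p = 0.0264) and Slc6a5 at 1.94 ± 0.75 (limma p = 0.0153, adjusted p = 0.132, permutation p = 0.0278). Each was higher than Vehicle on average in early SAFit2 mice and lower in late SAFit2 mice. None of the early rises passed nominal p (limma p of 0.125, 0.264 and 0.0526 in that order). The batch label follows the timing, so timing and batch cannot be told apart in this difference. After the GC and length correction the difference of Slc32a1 was 0.06, that of Slc6a9 0.16 and that of Slc6a5 1.87. Without Late Vehicle replicate 6, 2 of the 9 were called, Slc32a1 and Slc6a9, and 2513 of all genes were.

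**Figure D4:**
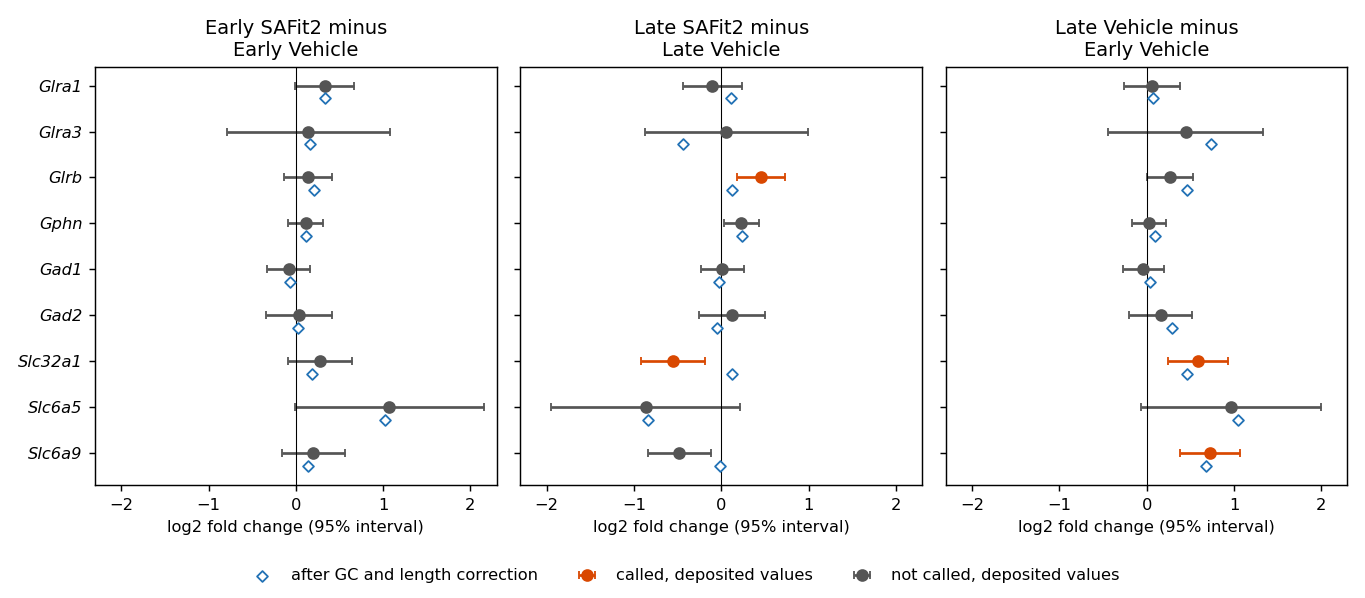
Log2 fold change of each gene with its 95% interval from limma (circles) in 3 comparisons, orange where called and grey where not, and the value after GC and length correction (diamonds). For Slc32a1 in late mice the circle is at -0.55 and the diamond at 0.13, while for Slc6a9 between Vehicle groups they are at 0.73 and 0.68.

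Between the Vehicle groups, Slc6a9 and Slc32a1 were higher in late than in early mice. They were 2 of 9 called, both higher, beside 9.11% of all genes. The same 6 Late Vehicle mice also enter the late comparison and early minus late, so these results are not separate findings. Mean log2 CPM of Slc32a1 was 7.09 in Early Vehicle, 7.12 in Late SAFit2 and 7.68 in Late Vehicle. For Slc6a9 the means of these groups were 7.52, 7.77 and 8.25. Slc6a9 had a median of 7.59 log2 CPM in Early Vehicle (6.99 to 7.76) and of 8.39 in Late Vehicle (7.57 to 8.56), and 5 of 6 late mice were above every early mouse. Its log2 difference of 0.73 ± 0.17 had a limma adjusted p of 0.00706 and an exact permutation p of 0.00866. Slc32a1 had medians of 7.14 (6.62 to 7.34) and 7.85 (6.84 to 8.11), with 5 of 6 late mice above every early one, a log2 difference of 0.59 ± 0.17, a limma adjusted p of 0.0285 and an exact permutation p of 0.0346. For neither gene were the groups free of overlap, as they were for 4.92% of all genes. Unlike the late comparison, these differences held after the GC and length correction, at 0.68 (limma adjusted p = 3.64e-05) and 0.46 (limma adjusted p = 0.000297). Glrb, at 0.26 ± 0.13 on the deposited scale and not called, was 0.46 after it, with a limma adjusted p of 0.00015. With the correction 3 of 9 members were thus called, but calls over all genes rose as well, from 1527 of 16765 to 3012 of 16213. The astrocyte marker mean was 0.28 log2 CPM higher in Late Vehicle, with 4 of 10 markers called higher, and the neuron mean 0.18 higher, with 1 of 10 called (exact permutation p = 0.00216 each, the smallest that 6 against 6 allows). The microglia mean was 0.21 higher (exact permutation p = 0.0108) with 0 of 8 called, and the endothelial mean 0.19 higher (exact permutation p = 0.0606) with 1 of 7 called. Slc6a9 was called without each single library in turn, and Slc32a1 was not called without Early Vehicle replicate 5 or Late Vehicle replicate 1, 3, 4 or 5 (limma adjusted p of 0.0560 to 0.0845). With the neuron mean as a covariate neither gene was called, at 0.58 for Slc6a9 (limma adjusted p = 0.133) and 0.63 for Slc32a1 (limma adjusted p = 0.113). Batch and timing of the gel cannot be told apart here.

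Ratios between genes within a mouse are given as a description. The log2 ratio of Slc32a1 to Gad1 in CPM was -0.36 ± 0.56 in Late Vehicle and -0.93 ± 0.33 in Late SAFit2, and -0.99 ± 0.30 in Early Vehicle and -0.63 ± 0.39 in Early SAFit2 (SD). The ratio of Slc32a1 to Slc17a6, the vesicular glutamate transporter of excitatory dorsal horn neurons, was -0.61 ± 0.77 in Late Vehicle and -1.50 ± 0.31 in Late SAFit2. That of Glrb to Glra1 was 3.51 ± 0.47 and 4.07 ± 0.56 in the same groups. These ratios are corrected for neither length nor GC content, they overlap between groups and they carry no test.

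Over the 36 pairs of members, with group means removed, 10 had a Pearson r with an adjusted permutation p under 0.05, of which 6 were positive and 4 negative. Slc32a1 and Slc6a9 moved most closely (r = 0.88, permutation p = 3.00e-05, adjusted p = 0.00108; rho = 0.87, adjusted p = 0.00072), with r of 0.98 in early and 0.84 in late mice and 0.78 without 2 libraries. Glrb ran against Slc32a1 (r = -0.76, adjusted permutation p = 0.0072; rho = -0.79, adjusted p = 0.0018), with r of -0.53 in early and -0.89 in late mice. The enzymes Gad1 and Gad2 moved together (r = 0.73, adjusted permutation p = 0.00778; rho = 0.77, adjusted p = 0.00372), with r of 0.74 in early and 0.72 in late mice. Gphn and Gad2 had r of 0.77 (adjusted permutation p = 0.00778; rho = 0.68, adjusted p = 0.0103), with r of 0.90 in early but 0.39 in late mice. Glrb and Gphn had r of 0.64 (adjusted permutation p = 0.013; rho = 0.60, adjusted p = 0.0193). After the GC and length correction the sign of Glrb with Slc32a1 turned, to r of 0.68, and that of Glrb with Slc6a9 from -0.63 to 0.57, whereas Gad1 with Gad2 stayed at 0.75 and Glrb with Gphn at 0.68. Points of a pair share their library, depth and base composition.

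**Figure D5:**
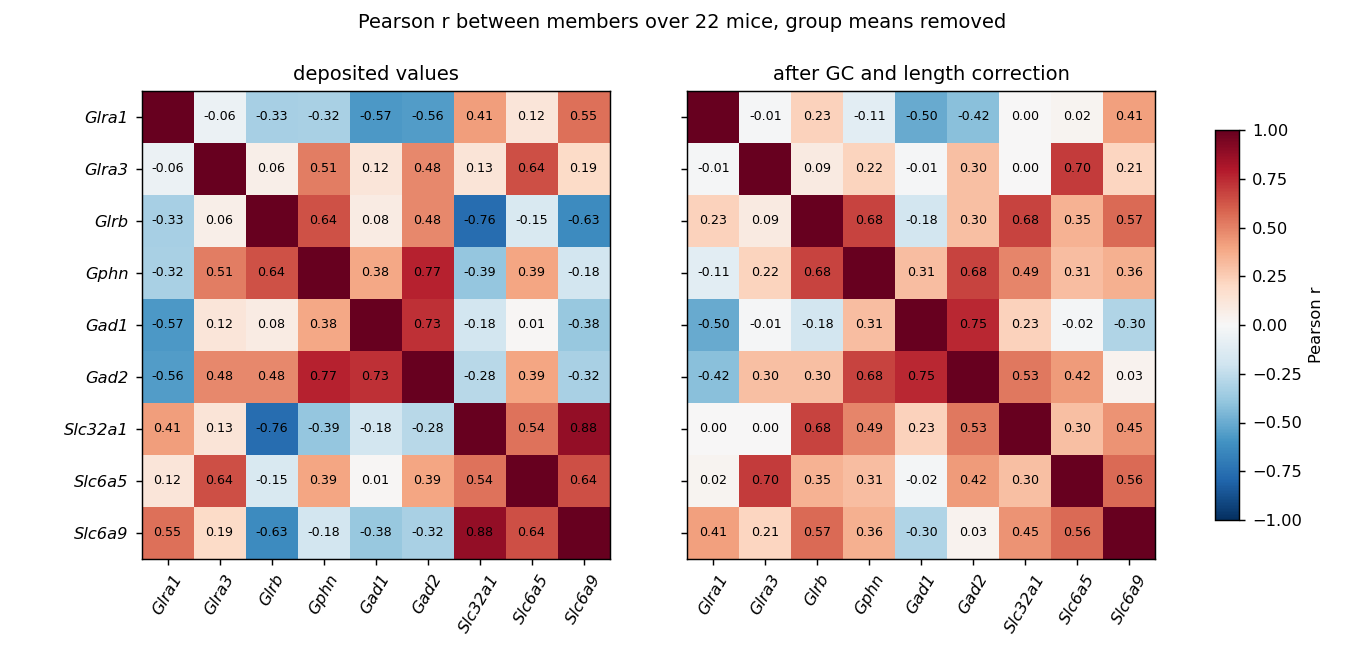
Pearson's r between each pair of genes over 22 mice with group means removed, from deposited values (left) and after GC and length correction (right), red positive and blue negative. The cell of Glrb and Slc32a1 is -0.76 on the left and 0.68 on the right, while that of Gad1 and Gad2 is 0.73 and 0.75.

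The genes most like 4 of the members over the 22 mice, with group means removed, are given as a description. For Slc32a1 they were Vps18, Ap2a1, Atg9a, Pigt and Trappc9, genes of vesicle traffic and membrane anchoring, with r from 0.95 to 0.96 and GC contents of 55.0% to 59.3%. For Slc6a5 they included Atp2b3, Syt2, Adcy9 and Scrn1, with r from 0.96 to 0.97. Among these, Syt2 is a calcium sensor of synaptic vesicle release and Atp2b3 is a calcium pump. For Gphn they were Atl1, Nckap1, Cse1l, Usp32 and Ipo7, with r from 0.85 to 0.90 and GC contents of 40.3% to 45.9%. For Glra1 the closest, 9330104G04Rik, Cd37, Gbx2, Wnk4 and Msc, had lower r, from 0.82 to 0.84.

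Other genes of inhibitory transmission were counted in lists, beside all genes tested with a median late log2 fold change of -0.05, of which 5.33% were called higher and 6.72% lower in late mice. All late calls given for these lists are on the deposited scale, and 0 were left after the GC and length correction. Of 16 further glycine receptor and inhibitory scaffold genes, 5 fell, 0 rose and 11 were not called in late mice, with a median of -0.31. Those that fell were Mdga1 (-0.91), which masks neuroligin 2, Insyn1 (-0.71), a partner of gephyrin, the adhesion proteins Nlgn3 (-0.51) and Nlgn2 (-0.43), and Clptm1 (-0.49), which holds back GABA-A receptors on their way to the surface. Of 14 GABA-A receptor subunits, 4 rose, 0 fell and 10 were not called, with a median of 0.32. These were Gabrg1 (0.68), Gabrb2 (0.56), Gabra2 (0.55) and Gabra5 (0.38). The fallers have GC contents of 49.3% to 62.8%, and the risers of 35.3% to 47.1%.

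Of 14 chloride transporter and GABA-B receptor genes, Slc12a2 (0.41), the importer of chloride, rose, and Slc12a5 (-0.50), the exporter that keeps GABA and glycine inhibitory, and the chloride channel Clcn2 (-0.59) fell, with a median of 0.21. Of 22 genes of GABA and glycine transport, breakdown and supply, Dld (0.49), an enzyme of the glycine cleavage system, rose and Pdxp (-0.40), a phosphatase of the vitamin B6 cofactor that the Gad enzymes need, fell, with a median of -0.14. Of 18 identity genes of inhibitory dorsal horn neurons, the transcription factors Rorb (0.63) rose and Gbx2 (-1.16) fell, with a median of -0.25. Of 19 genes of excitatory dorsal horn neurons, Nts (0.68), encoding neurotensin, rose, and the transcription factors Lbx1 (-1.47) and Prrxl1 (-0.79) and the peptide gene Sst (-0.71) fell, with a median of -0.05. The lists were written for this tissue with earlier results of these data known. All these calls have limma adjusted p from 0.0324 to 0.0497. After the GC and length correction 0 genes of these 6 lists were called, and Slc12a5, Clcn2, Nlgn2 and Pdxp turned to 0.03, 0.04, 0.22 and 0.27. The others kept their direction, some at a much smaller size, such as Gabra2 (from 0.55 to 0.16) and Dld (from 0.49 to 0.16). Among those with larger values left were Gabra5 at 0.33 (limma adjusted p = 0.115), Nlgn3 at -0.43 (limma adjusted p = 0.124), Gabrb2 at 0.38, Prrxl1 at -0.64 and Lbx1 at -0.81. In early mice and in the average and the difference of both timings, 0 genes of the 6 lists were called at an adjusted p. When single libraries were left out, the late calls ran from 0 to 9 higher for the GABA-A subunits and from 0 to 6 lower for the glycine receptor and scaffold list. Between Vehicle groups 6 genes of the lists were called higher and 1 lower, beside 3.29% and 5.82% of all genes.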

How the data were processed

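Messenger RNA libraries were made from total RNA of lumbar cord of 22 mice with a strand-keeping kit. Per the labels and the study's methods, the authors trimmed reads with Trimmomatic, aligned them to mm10 with HISAT2, counted reads per gene with featureCounts, applied TMM scaling in edgeR and deposited log2 CPM values, 1 table of 17306 genes. The deposited log2 values imply a prior count of 2.0, and 100% of those up to 2000 reads gave whole reads within 0.02 reads once this was undone. Versions are not given in the sources used here.

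The 16765 genes reaching -1 on that scale in 5 or more libraries were fitted in limma 3.58.1 (R 4.3.3, variance trend, 4 group means, 18 residual degrees of freedom), with p-values adjusted over all of them. A gene was called at an adjusted p under 0.05 and 1.2-fold, or, for the mean of both timings, at a nominal p under 0.05. Voom on the recovered reads (11352989 to 24433349 a library) called 876 genes in the late comparison. Fold changes of genes with few reads are pulled towards 0 by the prior count, and depth limits Glra3 and Slc6a5 most. Two-sided exact permutation tests of single genes used 462, 924 or 213444 splits, and correlations 100000 shuffles within groups. GC content and length came from the longest GENCODE M21 transcript, and the correction removed a loess curve (span 0.5) from each library. Scripts were tested on simulated data. All 9 members are named, with called genes of 6 lists and the 5 genes most like each of 4 members, of which 1 is not reported here. Members and lists were chosen with earlier results of these data known. Python 3.11.15, numpy 2.4.6, scipy 1.17.1, pandas 2.3.3 and matplotlib 3.10.9 were used.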

Additional observations from a re-analysis of the deposited data

Results flagged for a closer look

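For Slc32a1, Slc6a9 and Slc6a5 the early effect minus the late effect passed nominal p, although none passed the adjustment over all genes. The difference was 0.8352 for Slc32a1, 0.6806 for Slc6a9 and 1.939 for Slc6a5 on the log2 scale, with limma adjusted p of 0.120, 0.125 and 0.132. After the GC and length correction the differences were 0.06, 0.16 and 1.87. At nominal p, 24.9% of all genes differed in the same way.

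Among 36 groups of values examined (9 genes in 4 groups of 5 or 6 mice), 2 had a mouse far from the others, where chance alone flags about 5% of groups. Glrb in Early Vehicle replicate 1 was 8.047 log2 CPM from 5396 reads, with the nearest mouse at 8.389. Slc6a9 in Early Vehicle replicate 5 was 6.987 log2 CPM from 2104 reads, with the nearest at 7.476, and the same library was the lowest of its group for Slc32a1 and Slc6a5 and had the highest mitochondrial share (18.3%).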

How the results depend on the processing

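In the late comparison 2 members were called. The count was 0 after the GC and length correction, with a neuron or an oligodendrocyte marker mean as a covariate, without a variance trend, with only the groups compared in the fit, and without the 3 libraries of highest Bc1 share (a choice made after seeing the data). It was 1 with quantile normalization and with voom, 4 with library quality weights and 4 at nominal p, and 0 to 3 without single libraries. Between Vehicle groups 2 were called; the count was 0 with the neuron covariate, 1 with library sizes free of Bc1 and mitochondrial genes, 1 without a variance trend, with only the groups compared or with quantile normalization, and 1 to 2 without single libraries. For the mean of both timings 2 members passed nominal p; 0 passed an adjusted p, 4 passed nominal p after the GC and length correction and 5 with quality weights. For early minus late the count of 0 became 3 with quality weights and 0 to 2 without single libraries. In the early comparison the count was 0 in all 42 alternatives. The causes of these moves were not tested.

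After the GC and length correction, and then with the replicate block as well, signs turned for Slc32a1 late (0.13 and 0.10) and in the mean (0.16 and 0.15), and in the late comparison for Clcn2 (0.037 and 0.098), Nlgn2 (0.22 and 0.27), Pdxp (0.27 and 0.33) and Slc12a5 (0.031 and 0.044). Another 89 of 1809 member values changed sign with p past the threshold on neither side. Calls over all genes in the late comparison, 2021 on deposited values, were 0 after the correction, 0 with only the groups compared, 1 with the oligodendrocyte covariate, 62 without a variance trend, 876 with voom, 1266 with the neuron covariate, 1231 with quantile normalization and 6381 with quality weights. Between Vehicle groups they were 1527, 3012 after the correction and 576 with the neuron covariate, and for early minus late 0 and 5082 with quality weights.

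With the replicate number as a block, 3 members were called in the late comparison, 0 of them with the GC and length correction too, and 3 in early minus late; over all genes the block called 4219 late, 10 with the correction, and 1785 in early minus late. Same-numbered SAFit2 and Vehicle mice had deviations with r from -0.24 to 0.32 over 10 pairs, 2 of them over 0.1. Of these, 1 mouse correlated best with its own number. No pairing by number was seen, but this check cannot exclude a shared cage or another pairing. The study reports block randomisation with treatments spread over cages, and the labels name no cage. Depth limits Glra3 (14 to 268 reads) and Slc6a5 (44 reads in 1 library).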
